A study of Homo sapiens with 2 samples.

Results

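The interactions of 10 genes of the BCL2 family (BCL2, BCL2L1, MCL1, BCL2A1, BAX, BAK1, BCL2L11, BID, PMAIP1 and BMF) were extracted from the TCF3::HLF-HiChIP map. An interaction was taken when either of its 5-kb bins overlapped the body of a member gene or the 10 kb around it, with gene positions from GENCODE release 44 on hg38. This gave 49 of the 49245 listed interactions. HiChIP joins chromatin immunoprecipitation with conformation capture and reports contacts between distant DNA segments that are associated with a protein. A listed bin need not itself be bound. The samples were 2 replicates of HAL-01, a leukemia cell line with the translocation t(17;19), which carries Cas9GFP and in which wt-TCF3 was knocked out with a guide RNA and stable knockout cells were selected. The antibody was raised against E2A (TCF3), so that it pulls down the fusion protein when the wild-type protein is missing. The knockout line had been expanded clonally after dilution, and the replicates are described in the study's methods as biological replicates. There was 1 condition and no control group. Both replicates had been pooled by the authors when interactions were called, so no value below has a replicate error and no comparison between samples could be made. The list holds no value that checks the knockout itself.

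Proteins of the BCL2 family decide whether the outer mitochondrial membrane stays intact. The antiapoptotic members (BCL2, BCL-XL from BCL2L1, MCL1 and BFL1 from BCL2A1) hold back the effectors BAX and BAK1, which form pores that release cytochrome c. The BH3-only members (BIM from BCL2L11, BID, NOXA from PMAIP1 and BMF) relay stress signals by binding antiapoptotic members or effectors. Lymphoid cells depend on antiapoptotic members, and venetoclax is an inhibitor that occupies the BH3-binding groove of BCL2.

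The HLF portion of the fusion protein binds a short motif. It was searched on both strands as TTACGTAA (its own reverse complement) and as TTATGTAA, with no mismatch allowed. The following sites are shown because they are matches in the anchor bins of the strongest or most connected member genes, with the match in capitals, 11 bases on each side, 5′ to 3′, and coordinates in hg38.
MCL1, upstream bin, chr1:150580205-150580234, plus strand, in an exon of the gene ENSG00000290074: taaagaaccatTTATGTAAgtggactaagc
MCL1, upstream bin, chr1:150584406-150584435, minus strand, intergenic: tgtgaaaatgaTTATGTAAaaatgattgat
MCL1, partner bin 215 kb away, chr1:150791779-150791808, plus strand, intergenic: ccccactagacTTACGTAAcagccctctaa
BMF, bin in the gene, chr15:40097676-40097705, plus strand, intron of BMF: tgctgtggtgaTTACGTAAgaaaaatatac
BMF, bin in the gene, chr15:40096204-40096233, minus strand, intron of BMF: cagagtttgatTTATGTAAtccaaccttgt
BMF, partner bin of the gene start, chr15:40051900-40051929, plus strand, intron of SRP14-DT: gtcaatcaggcTTATGTAAtgaagcgtcca
BCL2, partner bin 390 kb away, chr18:62772211-62772240, plus strand, intron of PHLPP1: cttctggaaggTTATGTAAtgttgtgggta
The bin with the most interactions at BCL2 is not among them, because neither form occurs in it.

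Interactions were listed for 7 of the 10 genes, against 64.5% of the 19970 protein-coding genes. They were spread unevenly. MCL1 took part in 17, BCL2 in 16 and BMF in 10, whereas BID and PMAIP1 had 2 each, BCL2A1 and BAX had 1 each, and BCL2L1, BAK1 and BCL2L11 had 0. The median over the 10 genes was 1.5, and over all protein-coding genes it was 1. Thus 3 of the 10 genes had at least 10 interactions, a number reached by 10.1% of protein-coding genes, and MCL1 and BCL2 had at least 16, as did 4.93%. No replicate test was possible, and the counts describe this list.
A long gene touches more bins than a short one. BCL2 has a window of 217 kb including the 10 kb on each side, and 997 protein-coding genes with windows within 20% of that length had a median of 5 interactions. As many as BCL2 or more were listed for 16.4% of them. MCL1 has a window of 38.8 kb. Genes of similar window length had a median of 1, and 0.817% of those 4284 genes had as many as MCL1 or more. For BMF, with a window of 41.0 kb, the share was 3.08% of 4124 genes. Per 100 kb of window, MCL1 had 43.8 interactions, BMF 24.4 and BCL2 7.38. The order of the 3 genes by number depends on the criteria. BCL2 had 12 and MCL1 10 with a q-value under 1e-05, BCL2 had 13 and MCL1 12 with contact counts of 20 or more, and with the gene body alone MCL1 had 9, BMF 8 and BCL2 7.

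BCL2, the founding antiapoptotic gene of the family, covers positions 63123346 to 63320128 of chromosome 18 and is transcribed from the minus strand. Most of its interactions did not start at its promoter. A total of 11 of the 16 ran through the bin from 63115001 to 63120000, which lies 3.35 kb beyond the 3′ end of the gene. With 11 interactions this bin ranked 675 among the 53535 anchor bins, and 2.1% of anchor bins had 10 or more. Its contact counts (the numbers of read pairs that join both bins) ran from 17 to 44 with a median of 26. From this bin, 8 partners lay at lower coordinates, away from the gene, and 3 at higher coordinates, toward the gene or past its start.
The highest counts were equal. The bin beyond the 3′ end and the bin at 63270001, in the body of BCL2, were joined by 44 read pairs (Poisson 95% interval, 32.0 to 59.1; q-value 7.69e-20) over 155 kb. The same number was found with the bin at 62705001 (q-value 2.32e-22), 410 kb away and 5.54 kb from the start of PHLPP1, a phosphatase that acts on AKT. Among the 152 listed interactions at this distance, with a median of 24, the latter ranked 6.
Of the 9 annotated BCL2 transcripts, 5 start in the bin from 63315001 to 63320000, and this bin was an anchor of 0 interactions. The neighboring bin at 63320001, which holds the start of 1 transcript, was joined with the bin at 63100001, beyond the 3′ end, by 41 read pairs over 220 kb (29.4 to 55.6). A second transcript start, at 63160001, was joined with a bin in PHLPP1 by 25 read pairs (16.2 to 36.9). These were the only listed interactions of a BCL2 start bin. A contact inside the gene ran from 63125001 to 63280001, with 40 read pairs (28.6 to 54.5). The Poisson intervals of the counts from 40 to 44 overlap widely, so that no order among them can be read.
The bin beyond the 3′ end also reached past the gene, to the bin at 63440001, with 38 read pairs (26.9 to 52.2) over 325 kb, and into the gene at 63170001 with 37 (26.1 to 51.0) over 55 kb. Its partners between 62445001 and 63055001 other than that near PHLPP1 had 17 to 27 read pairs. At 85 kb, the 17 read pairs with the bin at 63030001 (9.90 to 27.2; q-value 0.00395) were below the median of 26 at that distance. The bin at 63030001 had a stronger contact with the body of BCL2 at 63280001, with 30 read pairs (20.2 to 42.8), though the intervals overlap.
The longest of the member interactions also belonged to BCL2. It joined the bin beyond the 3′ end with the bin at 60250001 over 2865 kb, with 21 read pairs (13.0 to 32.1; q-value 5.66e-08), where 11 interactions at this distance had a median of 20.

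**Figure D1:**
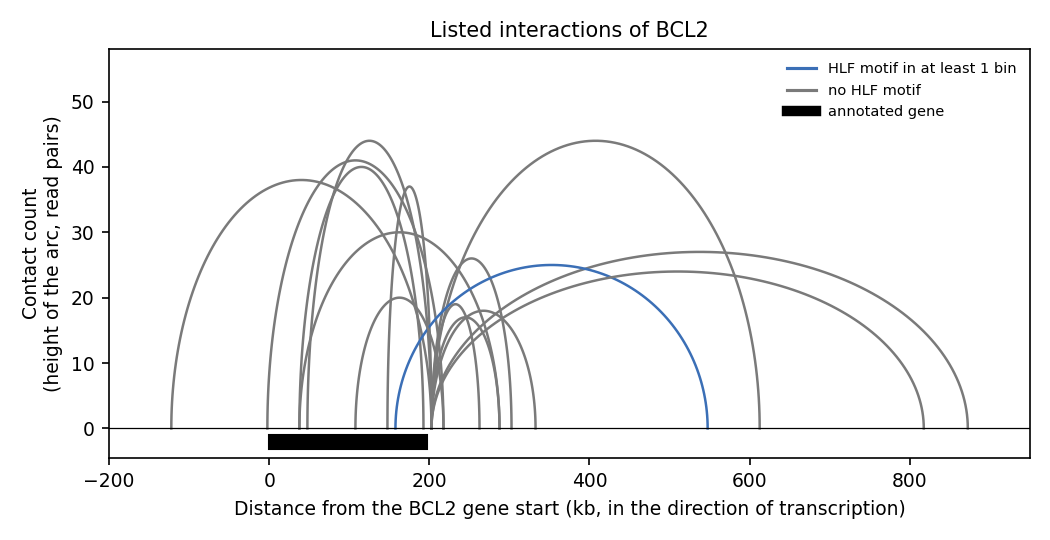
Listed interactions of BCL2 as arcs between the centers of the bins, with distance from the gene start in kb on the x axis and contact count as the height of the arc on the y axis. Arcs with an HLF motif in either bin are blue and the others gray, the interaction of 2865 kb is outside the range, and the arcs converge on the bin beyond the 3′ end rather than on the gene start at 0.

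MCL1, whose short-lived product restrains BAK1 and BIM, covers positions 150560895 to 150579738 of chromosome 1, minus strand. In contrast to BCL2, its interactions came from its 5′ end. They used 3 neighboring bins. The bin at 150580001, which begins 0.263 kb upstream of the gene, had 8, and the bin at 150575001, which holds 7 of the 8 annotated transcript starts, had 7. Bins with 5 or more made up 8.6% of anchor bins. The bin at 150570001, which holds the other start, had 2. Together these 17 interactions spread over 17 partner bins, 10 at higher coordinates (upstream) and 7 at lower coordinates.
The contact counts ranged from 15 to 52 with a median of 22. The highest count of all 49 member interactions, 52 (38.8 to 68.2; q-value 3.79e-31), joined the start bin of MCL1 with the start of CERS2, a ceramide synthase, 400 kb away. It ranked 1128 among all listed interactions and 4 among the 206 at the same distance, whose median was 25. The start of ANXA9 also lies within 10 kb of that partner bin. A weaker contact joined the upstream bin of MCL1 with another bin in CERS2, at 150965001 (15 read pairs; 8.40 to 24.7), so that CERS2 was reached from 2 bins of MCL1. The intervals of these counts do not overlap.
The next highest counts were 38 (26.9 to 52.2), with a bin in HORMAD1 130 kb away, and 28 (18.6 to 40.5), with a bin in TUFT1 965 kb away that also holds MIR554 and lies within 10 kb of the start of CGN. The remaining counts were 27 or lower, with intervals that overlap that of 28. A run of partner bins lay in RPRD2, a gene named here after the values were seen, at lower coordinates. The bins at 150445001, 150380001, 150395001 and 150360001 had 23, 22, 21 and 21 read pairs, over 130, 200, 185 and 210 kb. The first of them joined the main start bin, the next pair the upstream bin and the last the bin at 150570001, so that RPRD2 was reached from each of the 3 bins of MCL1. The farthest partner of MCL1 was the bin at 151785001, 1205 kb away, with 24 read pairs (15.4 to 35.7), where the median at that distance was 25. A protein-coding start lay within 10 kb of the partner bin in 10 of the 17 interactions of MCL1. For BCL2 this held in 2 of the 13 interactions with 1 bin in its window. No share over all listed interactions was computed for this. Gene density also differs, as the interaction of MCL1 over 1205 kb spans 38 protein-coding starts and that of BCL2 over 2865 kb spans 8. Its part in the contrast was not tested.

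**Figure D2:**
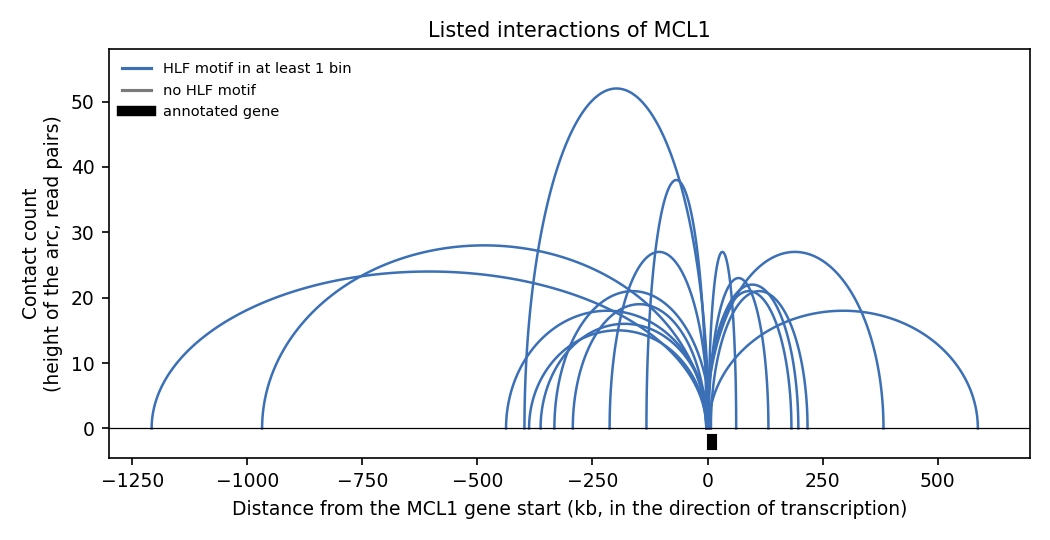
Listed interactions of MCL1, drawn as arcs with distance from the gene start in kb on the x axis and contact count as height on the y axis. All 17 arcs are blue, which marks an HLF motif in at least 1 bin, they end within the same 3 bins at the gene start, and the tallest is that with CERS2 at 52.

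The other antiapoptotic members, BCL2A1 and BCL2L1, had 1 and 0 listed interactions. Genes with a window similar in length to that of BCL2A1 had a median of 0, and 48.4% of them had as many as BCL2A1 or more. For BCL2A1, the gene of an NF-kappaB-induced survival factor on chromosome 15, a bin 0.892 kb past the 3′ end was joined with the bin at 78415001 over 1540 kb. This interaction had 30 read pairs (20.2 to 42.8; q-value 9.13e-15) and ranked 3 among 21 at its distance. None of the 3 transcript starts of BCL2A1 lies in an anchor bin. BCL2L1, on chromosome 20 from 31664452 to 31723989, had 0 listed interactions. Its nearest anchor bin lies 19.5 kb from the gene and had 26 read pairs (17.0 to 38.1) with a bin 80 kb away. Of the genes with a window of similar length, 23.9% also had 0.

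The effectors BAX and BAK1 had 1 and 0 listed interactions, where genes of similar window length had a median of 0 in both cases. As many as BAX or more were listed for 44.6% of the genes similar to it in window length. The single interaction of BAX, on chromosome 19, came from a bin 9.82 kb upstream of the gene, just inside the window, and reached a bin in HSD17B14 near BCAT2. It had 14 read pairs (7.65 to 23.5), with a q-value of 0.00279. It was the lowest count of the 49 and ranked 568 of 591 at its distance. It was not listed with a q-value under 0.001. BAK1, on chromosome 6 from 33572547 to 33580293, had 0, and its nearest anchor bin lies 158 kb away. Among genes of similar window length 54.3% had 0. The list holds only interactions with a q-value under 0.01, and between 100 and 250 kb its smallest count was 7, so that it does not show whether these genes have weaker contacts.

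BMF, a BH3-only gene at positions 40087890 to 40108892 of chromosome 15, minus strand, accounted for 10 of the 14 interactions of the BH3-only members. Of these, 6 started from the bin at 40095001 in the gene, which holds both intronic sites shown above. The highest count, 35 (24.4 to 48.7; q-value 6.98e-17), came from a bin 6.11 kb upstream of the gene and reached the bin at 40480001, within 10 kb of the start of CHST14, over 365 kb. The bin that holds all 10 transcript starts of BMF had 1 interaction, with the bin at 40050001 (25 read pairs; 16.2 to 36.9). The neighboring gene BUB1B, a kinase of the spindle checkpoint, was reached in 3 interactions, with 25, 23 and 15 read pairs at 50 to 90 kb. Their intervals overlap. The other 5 interactions of BMF, which have 19 to 22 read pairs, all used the bins in the gene body, and the longest ran over 1540 kb with 21 read pairs (13.0 to 32.1).
BID, which links death receptors to mitochondria, lies on chromosome 22 from 17734138 to 17774770. Among genes of similar window length, 49.5% had as many interactions as BID or more. Both of its interactions joined the start of SLC25A18 (bin at 17560001) with a bin that holds transcript starts of BID. The bin with 10 of the 11 starts had 36 read pairs (25.2 to 49.8; q-value 8.17e-15) at 210 kb, and the bin with the other start had 18 (10.7 to 28.5; q-value 0.000846) at 180 kb. The partner bin had 19 interactions and ranked 143 among all anchor bins. A total of 7 of the 19 reached BCL2L13, the neighboring family gene, within its 10-kb window, and the interaction of 18 read pairs belongs to the windows of both genes.
PMAIP1, a short gene that p53 induces, on chromosome 18 from 59899996 to 59904305, had an interaction from the bin with 2 of its 3 starts (27 read pairs over 55 kb; 17.8 to 39.3). A further interaction ran from a bin 5.70 kb past its end (25 read pairs over 140 kb; 16.2 to 36.9). The counts of PMAIP1 differed by less than their counting error. Among genes of similar window length, 19.4% had as many interactions as PMAIP1 or more. BCL2L11, on chromosome 2 from 111119378 to 111168444, had 0 interactions, as did 25.9% of genes of similar window length. The nearest anchor bin lies 21.6 kb past the gene and had 13 read pairs (6.92 to 22.2; q-value 0.00627) with a bin 515 kb away.

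Over the 49 interactions, the median contact count was 24 (95% interval of the median, 21 to 27), the same as the 24 of all interactions, and the counts ran from 14 to 52. In 22 of the 49 (44.9%) the count exceeded the median at the same distance, which was the case for 47.7% of all interactions. By gene the shares were 12 of 16 for BCL2, 5 of 17 for MCL1 and 1 of 10 for BMF. The median distance was 210 kb (140 to 365 kb), against 255 kb in the whole list. Only 4 spanned more than 1 Mb (8.16%, background 13.7%). A q-value under 1e-05 was found for 32 (65.3%, background 66.5%). All 49 were single bin pairs with no merged neighbor (background 92.3%), so that the sumCC, the count summed over a merged group, added nothing.

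**Figure D3:**
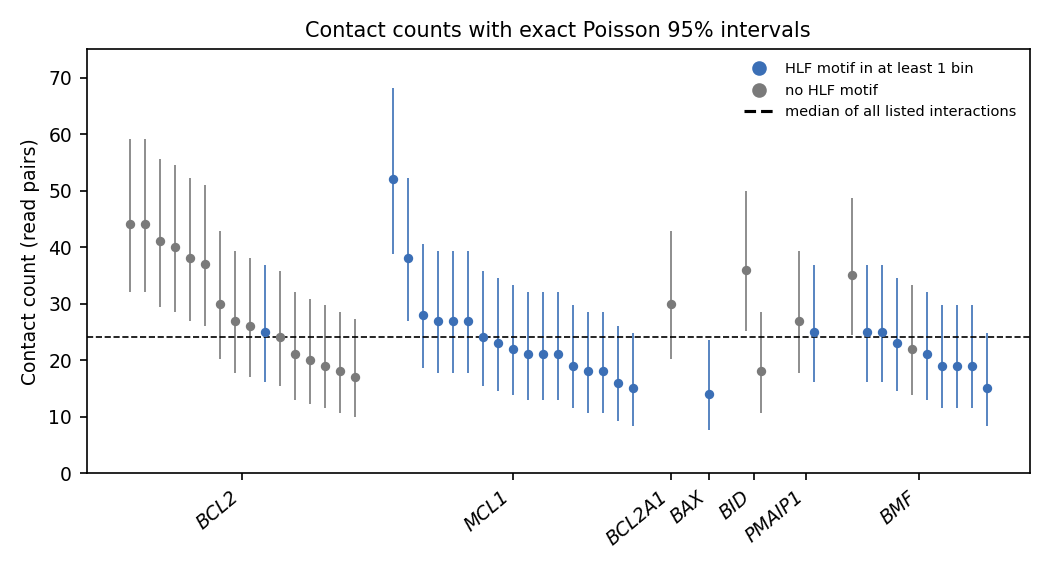
Contact counts of the 49 interactions (y axis, read pairs) by gene (x axis), with exact Poisson 95% intervals as bars and the median of all listed interactions, 24, as a dashed line. The counts run from 14 (BAX) to 52 (MCL1), and most intervals include the dashed line.

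An exact HLF motif was present in at least 1 bin of 28 of the 49 interactions (57.1%; Wilson 95% interval, 43.3 to 70.0%), and the background was 66.8%. The genes differed in this respect. All 17 interactions of MCL1 had a motif, against 1 of 16 for BCL2 (6.25%; 1.11 to 28.3%) and 8 of 10 for BMF (80.0%; 49.0 to 94.3%). The Wilson interval of MCL1 was 81.6 to 100%. With TTACGTAA alone the shares were 47.1% for MCL1 and 0% for BCL2, where 8.34% of all interactions had it, and with 25 kb around the gene they were 82.6% and 15.8%. The interactions of a gene share bins and are not independent, and the intervals cover counting error only. The intervals of the genes therefore cannot be compared as if each interaction were a replicate. Of 2020 protein-coding genes with 10 or more interactions, 11.7% had a motif in all of them and 0.396% in at most 1 in 16.
For MCL1 most interactions had a match in its main start bin or in the bin upstream of the gene. The bins at 150575001 and 150580001 carried 15 of the 17 interactions and hold 3 matches, and of the 17 partner bins 5 held a match (29.4%), near the 31.5% of all anchor bins. The match at 150575001 is the form TTACGTAA, found in 2.32% of anchor bins, and lies 117 bases upstream of the annotated gene start. At BMF, 1 of 5 own bins and 4 of 10 partner bins held a match. At BCL2, 0 of 8 own bins and 1 of 11 partner bins did. The bin beyond the 3′ end of BCL2 held 0 matches, and none was found when its neighboring bins were added, whereas 66.7% of the 1126 bins with 10 or more interactions held a match. With neighboring bins added for all anchors, a search chosen after seeing the data, the share for BCL2 was 81.3% and that of all interactions 90.4%. The low share at BCL2 therefore depends on the search within the bins themselves. The share is also a different measure from that of the study, which searched its called peaks for HLF motifs with motif-scanning tools. The study counts BCL2 among the genes whose promoters contact a TCF3::HLF site with an HLF motif.
RefSeq promoters (GRCh38.p14, from 250 bases before to 50 after the start) were found for 9 of the 10 genes, not for MCL1. None of the 9 held either form. Over all 35116 promoters TTACGTAA occurred in 0.125% and either form in 1.01%.

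A bin with a transcript start of the gene was an anchor for 5 of the 10 members (BCL2, MCL1, BID, PMAIP1 and BMF), against 26.6% of protein-coding genes. With anchors up to 10 kb from a start, the number was 6 (background 55.1%), through the bin upstream of BAX. Among the other genes of the pathway, 25 of 30 had at least 1 interaction by the same window, with a median of 1.5. These comprised 10 of 11 further BCL2 family genes and 15 of 19 caspases and their regulators, against the background of 64.5%. Most counts were small, and 10 of the 30 genes had a single interaction, against 3958 of the 19970 protein-coding genes. The downstream genes APAF1 and CYCS, whose products form the apoptosome with caspase-9, had 0, as did BCL2L2, CASP6 and CASP2. The further family gene with the most was BCL2L10, with 17, as many as MCL1. Its nearest anchor bin lies 2.23 kb from the gene. All 17 therefore came from the 10 kb around BCL2L10, and none from its gene body or a transcript start bin.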

How the data were processed

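TCF3::HLF-HiChIP was measured in 2 replicates of TCF3-KO HAL-01 cells. The authors trimmed reads with Trim Galore 0.6.6, merged the replicates, aligned to hg38 with BWA-MEM, extracted pairs with pairtools without its dedup step, called MACS2 peaks as reference and ran FitHiChIP (version not given in the sources used here) with 5-kb bins from 50 kb to 3 Mb at a q-value under 0.01, merging nearby contacts. The deposited contact counts are read pairs per bin pair without normalization, and the sumCC their sum over a merged group. The deposited p-value and q-value come from the caller. The deposited fraction tells, for each merged group, how many of its bin pairs were significant. Undeduplicated read pairs make counting intervals a lower limit of the error. Counts of all listed interactions add up to 1268490. No anchor bin ran past an hg38 chromosome end (0 of 53535).

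Counts per gene, exact Poisson intervals for contact counts, Wilson intervals for shares and order-statistic intervals for medians (all 95%) were computed, with no test between groups, since 1 merged library has none. Windows and motif counts were tested on simulated data. The letters of 1 motif site are not reported here. Members and gene lists were chosen with earlier results of these data known. Named partner genes have a start within 10 kb of, or host, the partner bins of the 3 interactions with the highest contact counts of each member (all for members with 5 or fewer). BCL2L10, CASP8, CFLAR and VDAC1 come from the pathway list. Alternatives were stricter q-values (0.001, 1e-05), contact counts of 20 or more, interactions no longer than 1 Mb, other windows and other motifs. Statistics were computed with scipy 1.17.1 and pandas 2.3.3 under Python 3.11.15, and plots with matplotlib 3.10.9.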

Additional observations from a re-analysis of the deposited data

How the results depend on the processing

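The number of member interactions was 32 with a q-value under 1e-05 and 27 with the gene body alone, where BCL2 kept 7 and MCL1 9, in place of 49. The median per member gene was 0.5 with the gene body alone and 2.5 with 25 kb around it, where BCL2L1 and BCL2L11 had 1 interaction each and PMAIP1 had 9. Pathway genes with an interaction numbered 15 with the gene body alone, in place of 25. No share over all protein-coding genes is given for the gene body alone, so this number has no background. The share of member interactions with an HLF motif was 28.6% with TTACGTAA alone (8.34% over all interactions). In alternatives chosen after seeing the data, it was 81.8% without BCL2, 34.4% without MCL1 and 85.7% with neighboring bins added. The cause was not tested. The other 40 values of these and the remaining summary results stayed within 1.5 times or within their interval. Among single genes and shares, 24 values moved further. With a q-value under 1e-05 MCL1 had 10 and BMF 6, and up to 1 Mb BCL2A1 had 0. The share for MCL1 was 47.1% with TTACGTAA alone. Contact counts below about 10 at distances over 250 kb are not in the list, so a gene with 0 interactions may have weaker contacts. Neither replicate could be left out, as the deposited list is merged. No paired analysis was possible because there is 1 group and no column per replicate.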

Other observations

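Among genes of the mitochondrial pathway that are not members, those with the most interactions after BCL2L10 (17) were VDAC1 (14), CFLAR (12) and CASP8 (11). None of the 17 touched the gene body of BCL2L10. VDAC1 encodes a channel of the outer mitochondrial membrane, and CFLAR encodes FLIP, an inhibitor of caspase-8. Their highest contact counts were 35, 38 and 39, and that of BCL2L10 was 47. An HLF motif was present in 14 of 14 interactions of VDAC1, in 12 of 12 of CFLAR, in 10 of 11 of CASP8 and in 14 of 17 of BCL2L10. The background was 66.8% of all interactions, and 11.7% of genes with 10 or more interactions had a motif in all of them. As many interactions as CASP8 or more were listed for 8.83% of protein-coding genes. CASP8 has a window of 148 kb, and among 1639 genes of similar window length the share was 20.6%, with a median of 4. Among genes similar in window length to VDAC1, CFLAR and BCL2L10, the shares were 2.25%, 6.91% and 0.555%. CFLAR and CASP8, both on chromosome 2, had no listed interaction in common, while BIRC2 and BIRC3 shared their single interaction (17 read pairs over 100 kb). These genes were singled out after their values were seen.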
